A study of Mus musculus with 80 samples.

Results

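Frozen livers of mice given dichloroacetic acid (DCA) at 3.5 g/L in drinking water were set against those of mice given 2 g/L, the top step of a dose series. The comparison used 12 of the 80 libraries of the series, 6 at 3.5 g/L (animals 97 to 102) and 6 at 2 g/L (animals 73 to 78), taken by their dose and preparation labels. The animals were male B6C3F1 mice, a cross of the C57BL/6 and C3H strains, labelled as 4 weeks old, with mixed lobes of liver as the source and 1 library per animal. The labels used here do not give the length of exposure. Total RNA was stripped of ribosomal RNA and made into stranded libraries, and 6 livers each at 1 g/L and in untreated mice were sequenced too. The question was which genes went on changing at the top step.

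DCA is a small chlorinated acid, a drinking-water by-product that blocks pyruvate dehydrogenase kinases and is broken down by the glutathione transferase GSTZ1. In rodent liver, many chlorinated acids and fibrate drugs act through the nuclear receptor PPAR alpha, which raises genes for omega-hydroxylation, peroxisomal and mitochondrial fatty acid oxidation, acyl-CoA hydrolysis and lipid storage. A separate layer of mouse liver expression is sex-biased: pulses of growth hormone in males, acting through STAT5B, keep one set of P450, Mup and steroid-enzyme genes high and hold a female set low.

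Lane L4 held every 3.5 g/L library by the column names, whereas at 2 g/L it held animals 76 to 78, and lane L3 held animals 73 to 75. Every untreated library was in lane L5. At 1 g/L, animal 49 was in lane L5 and animals 50 to 52 in lane L6. Animals 53 and 54 were in lanes L1 and L2 under another column-name prefix (V18431, against W48315). Lane therefore differs with dose at the lower steps too, and its part there was not tested. Total counts were 14051643 to 15277641 at 3.5 g/L, against 3067666 to 3854949 for animals 73 to 75 and 13120816 to 15660753 for animals 76 to 78. On the first principal component of all 24 frozen DCA libraries the 3.5 g/L livers lay at 21.5 to 32.7, animals 73 to 75 at 21.6 to 22.6 and animals 76 to 78 at 0.031 to 10.8. Animals 73 to 75 therefore stood apart from the other livers of their dose, and lane, depth and animal cannot be told apart as the source. Values are against all 6 livers at 2 g/L unless animals 76 to 78 alone, called lane L4 only, are named beside them. The 76 to 78 livers differed from the 73 to 75 livers in 166 of 13489 genes tested (1.23%), of which 89 were higher (0.66%) and 77 lower (0.571%). Albumin (Alb) ran at 47228 to 64553 counts scaled per library (CPM, TMM-scaled) at 3.5 g/L and 37559 to 63163 CPM at 2 g/L, in keeping with the high level known in hepatocytes. Gstz1 was 412 to 454 CPM at 3.5 g/L and 408 to 486 CPM at 2 g/L, with no difference beyond the spread (log2 fold change -0.01 ± 0.06, SE, adjusted p = 0.931).

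Of 13089 genes tested, 1472 (11.2%) differed between 3.5 and 2 g/L at an adjusted p under 0.05 in edgeR's quasi-likelihood test: 800 were higher (6.11%) and 672 lower (5.13%). Most changes were small, with a median log2 fold change of 0.36 among the rises and -0.50 among the falls, and 66 rises and 120 falls reached 2-fold. With upper-quartile scaling the split was 602 higher and 815 lower, so that 42.5% of calls were rises, against 54.3% with the scaling used here. In lane L4 only, 933 genes (7.2%) differed, of which 470 were higher (3.63%) and 463 lower (3.57%) of 12965 tested. This fit reuses 9 of the 12 libraries. Of 1461 called genes that could be tested in lane L4 only, 1461 had the same sign and 691 were also called, 377 upward and 314 downward. For 326 genes (2.49%) every liver at 3.5 g/L lay above every liver at 2 g/L, and for 201 genes (1.54%) every one lay below. All p-values measure the spread between these animals.

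The largest of the named rises was in an acyl-CoA thioesterase. Acot3 (chr12:84052144-84060402, plus strand, mm10), a peroxisomal thioesterase that frees long-chain acyl groups from coenzyme A, had 70.5, 70.9, 252, 114, 193 and 134 CPM in animals 97 to 102 at 3.5 g/L. At 2 g/L it had 37.8, 19.1 and 16.1 CPM in animals 73 to 75 and 6.69, 5.13 and 2.01 CPM in animals 76 to 78. All 6 livers at 3.5 g/L lay above all 6 at 2 g/L, and the log2 fold change was 3.59 ± 0.45 (SE, adjusted p = 2.51e-05). In lane L4 only it was 4.92 ± 0.55 (adjusted p = 0.00132). Its neighbour Acot4 (chr12:84038379-84048601, plus strand), which hydrolyses dicarboxylic acyl-CoAs, had 63.4 to 147 CPM (median 97.7) at 3.5 g/L and 14.8 to 50.4 CPM (median 25.0) at 2 g/L. Its log2 fold change was 1.95 ± 0.21 (adjusted p = 1.34e-05, 2.37 ± 0.27 in lane L4 only). These thioesterase genes resemble one another, so how the authors' counting divided shared reads bears on the exact share of each. Acot1, the cytosolic member, was nearer the threshold at 1.02 ± 0.34 (adjusted p = 0.0499) and 1.95 ± 0.42 (adjusted p = 0.0193) in lane L4 only, and its call was lost with upper-quartile scaling and with DESeq2. Abcd2, a transporter that carries very long-chain acyl-CoAs into peroxisomes, had 32.7 to 85.6 CPM (median 43.8) at 3.5 g/L and 9.9 to 28.5 CPM (median 16.6) at 2 g/L, a log2 fold change of 1.52 ± 0.32 (adjusted p = 0.00396, 1.45 ± 0.36 in lane L4 only).

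**Figure D1:**
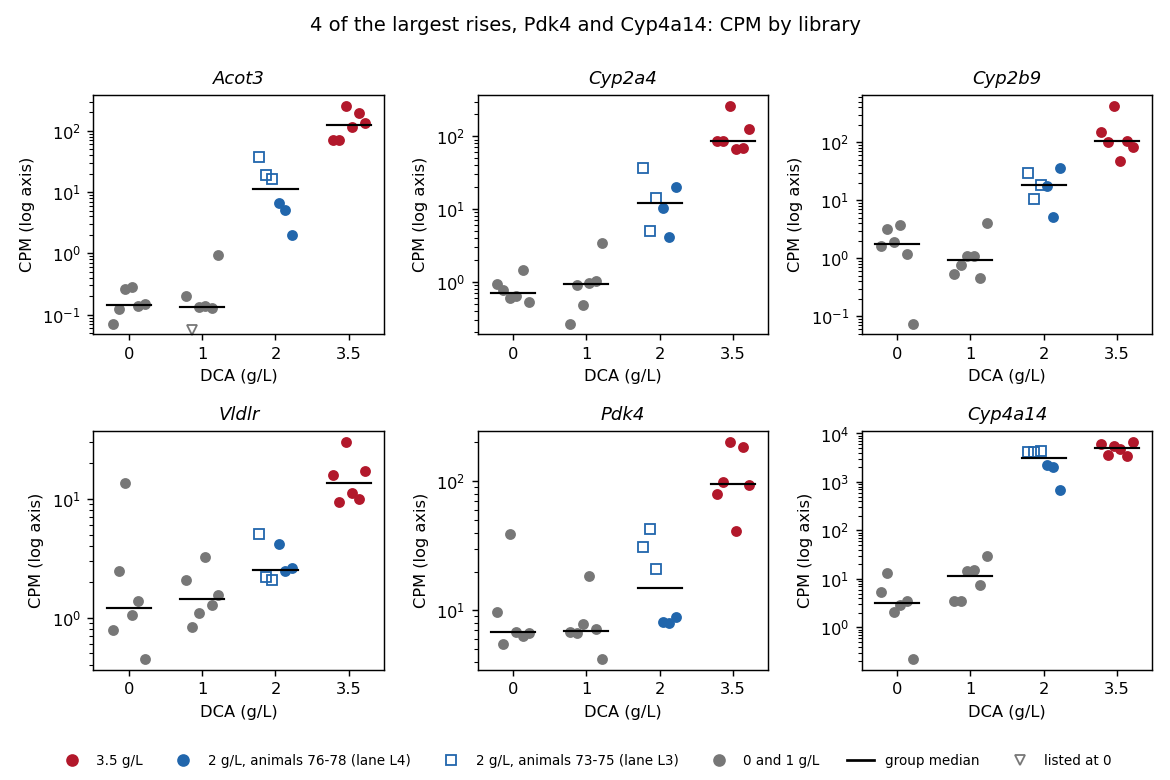
CPM (log axis) of 6 genes in each frozen DCA liver by dose, with group medians as lines, open squares for animals 73 to 75 and a triangle for a library listed at 0. At 3.5 g/L all 6 livers lie above every liver at 2 g/L for Acot3, Cyp2a4, Cyp2b9 and Vldlr, while for Pdk4 and Cyp4a14 the 3.5 g/L livers clear animals 76 to 78 but overlap animals 73 to 75.

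Most of the peroxisomal pathway did not pass at the top step. Of 27 peroxisomal fatty acid oxidation genes, 5 rose and 0 fell at the top step, with a median log2 fold change of 0.09, against 0.0046 over all genes tested. The background for this and every later list is 6.11% higher and 5.13% lower over all genes tested. In lane L4 only it is 3.63% and 3.57%. Lane L4 only gave 6 rising and 0 falling, with a median of 0.25, against 0.0031 over all genes. At the step from 1 to 2 g/L, 19 of the 27 rose and 3 fell (background 9.9% higher and 6.64% lower), with a median of 0.93. Ehhadh, the bifunctional enzyme of the peroxisomal cycle, had 3903 to 9256 CPM at 3.5 g/L, against 6670 to 7524 CPM in animals 73 to 75 and 809 to 3988 CPM in animals 76 to 78. Its log2 fold change of 0.37 ± 0.30 did not pass (adjusted p = 0.472), nor did the 1.23 ± 0.41 of lane L4 only (adjusted p = 0.0905). The remaining risers were Pex11a, which drives peroxisome division (0.80, adjusted p = 0.0067), and Pex13 of the protein import machinery (0.29, adjusted p = 0.0051).

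For the Cyp4 omega-hydroxylases the call depended on which livers at 2 g/L were used. Cyp4a14 had 3444 to 6795 CPM (median 5057) at 3.5 g/L, against 4202, 4104 and 4342 CPM in animals 73 to 75 and 2233, 2056 and 692 CPM in animals 76 to 78. All 6 livers at 3.5 g/L exceeded animals 76 to 78, but only 4 of the 6 exceeded all livers at 2 g/L. Against all 6 the log2 fold change was 0.77 ± 0.49 (adjusted p = 0.327), and in lane L4 only 1.59 ± 0.34 (adjusted p = 0.0202). Cyp4a10 followed it, at 0.67 ± 0.49 (adjusted p = 0.411) and 1.51 ± 0.31 (adjusted p = 0.0178). Of 11 Cyp4 genes tested, 0 were called either way against all 6 livers, with 4 rising in lane L4 only (Cyp4a10, Cyp4a14, Cyp4a31 and Cyp4a32). Cyp4a copies are near-identical, so the division of reads among them is uncertain.

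Part of the mitochondrial fat oxidation list rose. Of 25 mitochondrial oxidation and ketogenesis genes, 8 rose and 1, Etfb, fell, and in lane L4 only 8 rose and 0 fell. Acadl, the long-chain acyl-CoA dehydrogenase, had 195 to 238 CPM at 3.5 g/L and 133 to 168 CPM at 2 g/L without overlap (0.48 ± 0.07, adjusted p = 0.000155, and 0.53 ± 0.09 in lane L4 only). Slc22a5, the carnitine importer of the cell membrane, had 41.2 to 71.9 CPM at 3.5 g/L, against 42.1, 46.9 and 45.1 CPM in animals 73 to 75 and 16.8, 27.7 and 11.2 CPM in animals 76 to 78. Its log2 fold change was 1.02 ± 0.24 (adjusted p = 0.0073), and 1.69 ± 0.25 in lane L4 only. Acsl1, which activates fatty acids, rose by 0.57 on the log2 scale (adjusted p = 0.012). Of 23 other PPAR alpha markers 5 rose and 0 fell, with 9 rising in lane L4 only. Plin2, the lipid droplet coat protein, had 810 to 1272 CPM at 3.5 g/L and 321 to 766 CPM at 2 g/L (0.81 ± 0.17, adjusted p = 0.00319, and 1.24 ± 0.21 in lane L4 only). Angptl4, a secreted inhibitor of lipoprotein lipase, had 161 to 196 CPM at 3.5 g/L and 38.4 to 127 CPM at 2 g/L (1.03 ± 0.22, adjusted p = 0.0035, and 1.48 ± 0.28 in lane L4 only). Ppara itself rose by 0.43 (adjusted p = 0.035), though not in lane L4 only (0.37, adjusted p = 0.11). Cd36, a fatty acid uptake receptor, was called in lane L4 only (1.19 ± 0.28, adjusted p = 0.0257) and not against all 6 livers (0.40 ± 0.31, adjusted p = 0.436).

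**Figure D2:**
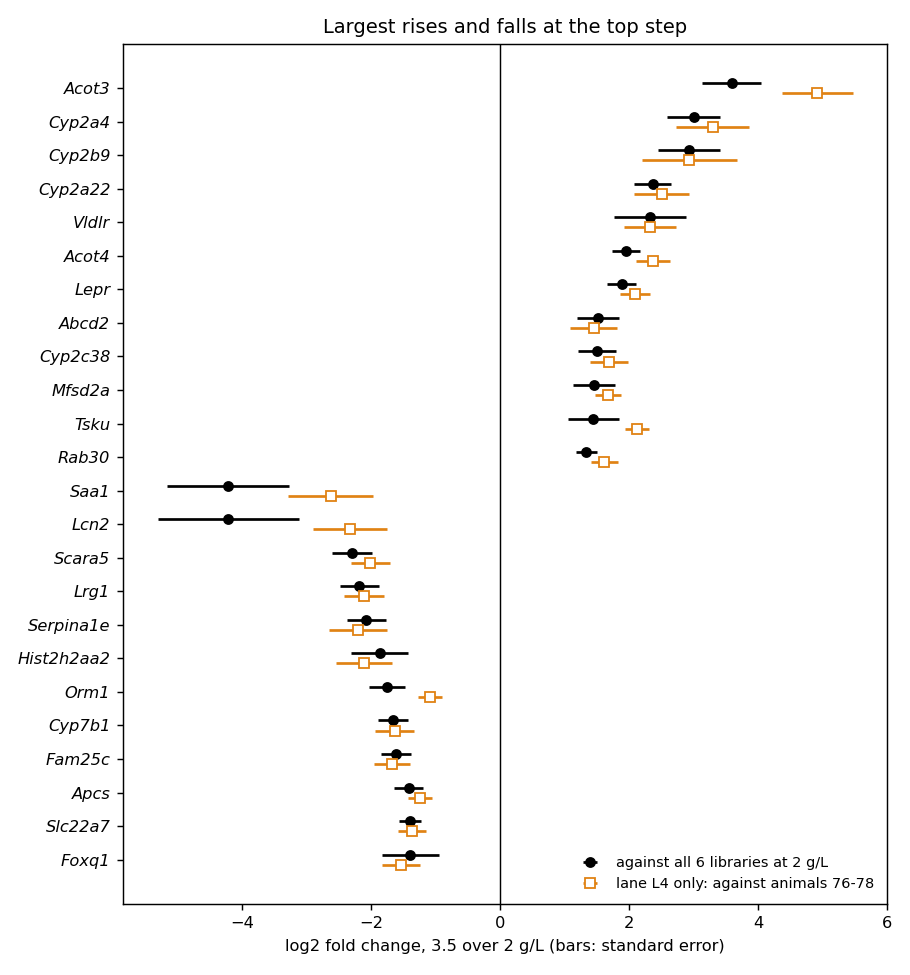
Log2 fold changes of 3.5 over 2 g/L with standard errors for the 12 largest rises and 12 largest falls, against all 6 livers at 2 g/L (filled) and in lane L4 only (open). The 24 genes keep their sign in both, which follows from their pick, as no liver at 3.5 g/L overlapped any liver at 2 g/L. Acot3 is at 3.59 against all 6 livers and at 4.92 in lane L4 only, and Saa1 is at -4.22 and at -2.63.

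Pdk4, the pyruvate dehydrogenase kinase induced by fasting and by PPAR alpha ligands, belonged to the strongest rises. It had 79.4, 98.9, 203, 41.5, 184 and 93.0 CPM in animals 97 to 102 at 3.5 g/L. At 2 g/L it had 30.8, 42.5 and 20.8 CPM in animals 73 to 75 and 8.07, 7.96 and 8.88 CPM in animals 76 to 78. Only animal 100 lay within the 2 g/L range, and the log2 fold change was 2.79 ± 0.53 (adjusted p = 0.00152) and 3.81 ± 0.49 (adjusted p = 0.0025) in lane L4 only. Median levels were 6.77 CPM in untreated mice and 6.99 CPM at 1 g/L, though untreated animal 5 had 38.8 CPM, against 5.48 to 9.70 CPM in the other untreated livers. Of 14 genes of pyruvate import and the dehydrogenase complex 5 rose and 0 fell. The other 4 were Pdp2, the phosphatase that opposes the kinases (0.53 ± 0.11, adjusted p = 0.00263), the complex subunits Pdha1 and Dld, and the mitochondrial pyruvate carrier Mpc2. Pdk4 and Pdp2 alone, 2 of 13, rose in lane L4 only.

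Further genes among the largest rises sit outside these pathways. Lepr, the leptin receptor, had 20.7 to 46.2 CPM (median 31.2) at 3.5 g/L and 6.44 to 13.3 CPM (median 9.01) at 2 g/L. Its log2 fold change was 1.89 ± 0.23 (adjusted p = 2.11e-05, 2.09 ± 0.24 in lane L4 only), and the change per g/L was more positive than below 2 g/L (by 0.94 log2 units per g/L, adjusted p = 0.019). Vldlr, a receptor that takes up triglyceride-rich lipoproteins, had 9.41 to 30.3 CPM (median 13.5) at 3.5 g/L and 2.05 to 5.01 CPM (median 2.54) at 2 g/L (2.32 ± 0.55, adjusted p = 0.00871, and 2.33 ± 0.40 in lane L4 only). Untreated animal 5 had 13.5 CPM of Vldlr too, against 0.448 to 2.46 CPM in the other untreated livers. Mfsd2a, a lysophosphatidylcholine transporter, had 11.9 to 16.8 CPM at 3.5 g/L and 2.81 to 7.32 CPM at 2 g/L (1.46 ± 0.32, adjusted p = 0.00509, and 1.67 ± 0.21 in lane L4 only). Tsku, a secreted liver protein, rose by 1.45 ± 0.40 (adjusted p = 0.022, 2.12 ± 0.19 in lane L4 only) and Rab30, a Golgi small GTPase, by 1.34 ± 0.17 (adjusted p = 2.41e-05, 1.62 ± 0.20 in lane L4 only). The call on Tsku was lost when animal 76, 77 or 78 was left out.

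Sex-biased genes moved in opposite directions. Cyp2a4 (chr7:26307169-26315088, plus strand), a female-biased steroid hydroxylase, had 86.1, 86.3, 259, 66.7, 67.9 and 124 CPM in animals 97 to 102 at 3.5 g/L. At 2 g/L it had 36.1, 5.00 and 14.1 CPM in animals 73 to 75 and 10.4, 4.09 and 20.1 CPM in animals 76 to 78. The groups did not overlap, and the log2 fold change was 3.00 ± 0.41 (adjusted p = 6.8e-05) and 3.30 ± 0.56 (adjusted p = 0.00831) in lane L4 only. Cyp2b9 (chr7:26173411-26210661, plus strand), another female-biased P450, had 47.7 to 421 CPM (median 104) at 3.5 g/L and 5.13 to 36.0 CPM (median 18.2) at 2 g/L. Its log2 fold change was 2.93 ± 0.48 (adjusted p = 0.000535) and the same, with a larger error of 0.73, in lane L4 only. Animal 99 was highest for both genes. Cyp2a22 rose by 2.37 ± 0.29 (adjusted p = 2.11e-05, 2.51 ± 0.43 in lane L4 only). The Cyp2a and Cyp2b genes lie in 1 cluster on chromosome 7 and share sequence, so counts of single members carry that uncertainty. Of 16 female-biased genes listed, 6 had too few counts for the test. Of the 10 tested, 4 rose (Cyp2a4, Cyp2b9, Acot3 and Fmo2), 0 fell and the rest were not called.

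Of 20 male-biased genes, all tested, 9 fell and 0 rose, with a median log2 fold change of -0.80. In lane L4 only 5 fell and 0 rose, and at the step from 1 to 2 g/L 9 fell and 1 rose (background 6.64% lower and 9.9% higher). Serpina1e, a male-biased protease inhibitor of the alpha-1-antitrypsin family, had 293 to 2321 CPM (median 715) at 3.5 g/L and 3136 to 5154 CPM (median 3970) at 2 g/L, with medians of 17790 CPM in untreated mice and 13064 CPM at 1 g/L. Its log2 fold change was -2.07 ± 0.30 (adjusted p = 0.000177) and -2.21 ± 0.45 in lane L4 only. Cyp7b1, the oxysterol 7-alpha-hydroxylase, had 53.4 to 176 CPM (median 91.0) at 3.5 g/L and 211 to 429 CPM (median 290) at 2 g/L (-1.65 ± 0.23, adjusted p = 9.03e-05, and -1.63 ± 0.30 in lane L4 only). Selenbp2 had 129 to 398 CPM at 3.5 g/L and 367 to 720 CPM at 2 g/L (-1.28 ± 0.21, adjusted p = 0.00046, and -1.47 ± 0.29 in lane L4 only). Hsd3b5, a male-biased steroid dehydrogenase, fell by 1.21 (adjusted p = 0.0097), and Slco1a1, an organic anion importer, by 0.57 (adjusted p = 0.011). Members that did not pass include Cyp4a12a (0.02 ± 0.18, adjusted p = 0.975) and Cyp2d9 (0.20 ± 0.14, adjusted p = 0.384).

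Readouts of growth hormone signalling depended on which livers at 2 g/L were used. Of 16 genes of the growth hormone axis 1, Egfr, fell against all 6 livers (-0.60 ± 0.19, adjusted p = 0.0411), and 4 fell in lane L4 only. Cish, a STAT5-induced feedback inhibitor, had 1.70 to 4.77 CPM at 3.5 g/L, against 1.00, 1.25 and 14.1 CPM in animals 73 to 75 and 26.1, 26.9 and 14.8 CPM in animals 76 to 78. It was lower at 3.5 g/L than in each of animals 75 to 78, and animals 73 and 74 lay below the whole 3.5 g/L range. The log2 fold change was -2.26 ± 0.79 (adjusted p = 0.062) against all 6 and -2.77 ± 0.24 (adjusted p = 0.00052) in lane L4 only. Socs2, a second such inhibitor, stood at -1.38 (adjusted p = 0.13) and -1.86 ± 0.36 (adjusted p = 0.013). Igfals, which stabilises circulating IGF1, stood at -0.59 (adjusted p = 0.056) and -0.93 ± 0.17 (adjusted p = 0.010). Untreated livers spanned 0.618 to 39.3 CPM for Cish, a range that holds every value at 2 and 3.5 g/L. For Socs2 they spanned 5.08 to 57.5 CPM, against 2.58 to 9.03 CPM at 3.5 g/L. For Igfals they spanned 106 to 163 CPM, against 42.6 to 68.3 CPM at 3.5 g/L.

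P450s outside the sex-biased set included several that had dropped between 1 and 2 g/L. Both steps use the livers at 2 g/L, so a low level in these alone would give a drop and then a rise. Cyp3a25 had 804 to 954 CPM (median 920) at 3.5 g/L and 364 to 529 CPM (median 445) at 2 g/L, with medians of 619 CPM in untreated mice and 710 CPM at 1 g/L. The top-step log2 fold change was 1.02 ± 0.13 (adjusted p = 4.39e-05) and 0.91 ± 0.10 (adjusted p = 0.00132) in lane L4 only, and that from 1 to 2 g/L was -0.85. Cyp3a59 had 25.9 to 38.2 CPM at 3.5 g/L and 8.13 to 20.0 CPM at 2 g/L (1.196 ± 0.22, adjusted p = 0.00142, and 0.96 ± 0.17 in lane L4 only). Cyp3a11, the main xenobiotic P450 of this family, rose by 0.74 ± 0.23 (adjusted p = 0.0352), and Cyp2c38, an arachidonic acid epoxygenase, by 1.51 ± 0.29 (adjusted p = 0.00188). Of 21 target genes of the xenobiotic receptors CAR and PXR, 6 rose and 0 fell, with 5 rising in lane L4 only. At the step from 1 to 2 g/L, 4 of the 21 rose and 9 fell (background 9.9% higher and 6.64% lower). Cyp2b10, the standard CAR marker, stayed at 0.274 to 3.20 CPM at 3.5 g/L and 0 to 1.41 CPM at 2 g/L (0.27 ± 0.67, adjusted p = 0.853).

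The promoters of the called genes were searched for the repeat AGGTCA, any 1 base, AGGTCA, which PPAR alpha with RXR can bind, on either strand with at most 1 mismatch in the fixed letters. The window ran from 250 bases before to 50 bases after each RefSeq start (GRCm38.p6). A match was found for 9 of 565 rising genes with a window (1.59%), 1 of 492 falling genes (0.203%) and 52 of 9409 of all genes tested (0.553%), against 0.554% of all windows in the table. These shares are descriptions, and most risers hold no such letters here. The 9 risers were Ube2q1, Ak4, Clock, Baz1b, Cyp3a25, Cyp3a59, Igsf23, Pbld1 and Acot12, and the faller was Slco1a1. The exact repeat occurred in Igsf23 (chr7:19950694-19950993, minus strand), an immunoglobulin-family gene with 3.23 to 4.80 CPM at 3.5 g/L and 1.79 to 4.38 CPM at 2 g/L (0.75 ± 0.20, adjusted p = 0.0206, and 1.01 ± 0.18 in lane L4 only). Acot12 (chr13:91741271-91741570, plus strand), a cytosolic acetyl-CoA thioesterase, had 128 to 180 CPM at 3.5 g/L and 80.9 to 147 CPM at 2 g/L (0.37 ± 0.11, adjusted p = 0.0377, and 0.66 ± 0.12 in lane L4 only). Its call was lost with upper-quartile scaling, with only the 12 libraries in the fit and without animal 76, 77, 78, 97, 99, 100 or 102, and that of Igsf23 without animal 76 or 77. The windows of Cyp3a25 (chr5:146009568-146009867, minus strand) and Cyp3a59 (chr5:146079008-146079307, plus strand) are shown because these near copies carry the same match at position 67 of the window. The match is in capitals and each window reads 5′ to 3′.
Igsf23: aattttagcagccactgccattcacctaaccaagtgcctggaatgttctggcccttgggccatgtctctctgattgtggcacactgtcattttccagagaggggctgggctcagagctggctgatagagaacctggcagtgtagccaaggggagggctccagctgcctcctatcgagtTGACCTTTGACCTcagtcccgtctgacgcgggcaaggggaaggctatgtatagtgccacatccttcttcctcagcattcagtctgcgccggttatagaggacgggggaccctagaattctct
Acot12: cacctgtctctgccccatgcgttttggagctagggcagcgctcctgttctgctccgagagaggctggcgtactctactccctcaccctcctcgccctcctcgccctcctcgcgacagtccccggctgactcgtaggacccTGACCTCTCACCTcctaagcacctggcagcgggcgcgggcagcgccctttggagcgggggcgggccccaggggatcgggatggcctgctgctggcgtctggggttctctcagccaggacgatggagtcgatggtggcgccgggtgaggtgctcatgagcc
Cyp3a25: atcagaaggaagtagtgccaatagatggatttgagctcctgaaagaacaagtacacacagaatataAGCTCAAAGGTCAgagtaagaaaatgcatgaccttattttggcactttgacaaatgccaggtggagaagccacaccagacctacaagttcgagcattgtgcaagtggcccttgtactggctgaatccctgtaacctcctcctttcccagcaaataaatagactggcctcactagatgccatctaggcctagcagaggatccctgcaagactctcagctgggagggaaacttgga
Cyp3a59: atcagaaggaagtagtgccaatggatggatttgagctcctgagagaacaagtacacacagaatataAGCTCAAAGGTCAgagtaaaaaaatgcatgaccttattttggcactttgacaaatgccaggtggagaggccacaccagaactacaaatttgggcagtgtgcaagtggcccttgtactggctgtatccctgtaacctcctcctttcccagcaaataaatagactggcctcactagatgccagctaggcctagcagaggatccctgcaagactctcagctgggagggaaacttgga

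Conjugation, bile acid and lipid synthesis genes changed in part. Of 26 NRF2 targets and glutathione transferases 5 rose and 1, Gstp2, fell, with 5 and 0 in lane L4 only. Gsta2 had 16.5 to 31.1 CPM at 3.5 g/L and 6.88 to 14.0 CPM at 2 g/L (1.05 ± 0.21, adjusted p = 0.00232, and 1.09 ± 0.20 in lane L4 only), and Gstm1 rose by 0.60 ± 0.15 (adjusted p = 0.0114). Of 17 bile acid genes 5 rose and 2 fell, with 3 and 2 in lane L4 only. The risers included the canalicular exporters Abcc2 (0.59 ± 0.11, adjusted p = 0.000948) and Abcb4 and the bile acid receptor Nr1h4, and the fallers were Cyp7b1 and Slco1a1. Cyp7a1, which opens the classic route of bile acid synthesis, had 31.8 to 147 CPM at 3.5 g/L and 48.9 to 160 CPM at 2 g/L (-0.31 ± 0.39, adjusted p = 0.655). Slc22a7, an organic anion transporter, had 11.4 to 25.6 CPM at 3.5 g/L and 41.2 to 50.6 CPM at 2 g/L without overlap (-1.40 ± 0.17, adjusted p = 2.18e-05, and -1.36 ± 0.22 in lane L4 only).

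Cholesterol synthesis moved down. Of 23 genes 7 fell and 1, Hsd17b7, rose, and in lane L4 only 4 fell and 1 rose. Mvk, mevalonate kinase, had 4.48 to 7.62 CPM at 3.5 g/L and 8.27 to 13.5 CPM at 2 g/L (-0.76 ± 0.14, adjusted p = 0.00109, and -0.82 ± 0.17 in lane L4 only). Dhcr7, the last step to cholesterol, had 48.2 to 65.2 CPM at 3.5 g/L and 64.4 to 92.6 CPM at 2 g/L (-0.52 ± 0.12, adjusted p = 0.00563, and -0.49 ± 0.11 in lane L4 only). Of 27 fatty acid and triglyceride synthesis genes 4 rose and 2 fell, with 3 and 1 in lane L4 only. Lpin2, a phosphatidate phosphatase, had 597 to 783 CPM at 3.5 g/L and 203 to 433 CPM at 2 g/L (1.08 ± 0.14, adjusted p = 2.51e-05, and 1.37 ± 0.14 in lane L4 only). Elovl6, an elongase of palmitate, had 254 to 356 CPM at 3.5 g/L and 128 to 219 CPM at 2 g/L (1.03 ± 0.17, adjusted p = 0.000664, and 0.88 ± 0.17 in lane L4 only). The synthases themselves did not pass: Fasn stood at 0.25 ± 0.20 (adjusted p = 0.459) and Scd1, the stearoyl-CoA desaturase, at 0.40 ± 0.27 (adjusted p = 0.369).

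Carbohydrate and amino acid genes changed little, and most of their calls were lost in lane L4 only. Of 19 glycogen genes 3 rose, among them Gys2, the liver glycogen synthase (0.55, adjusted p = 0.0067), and Ugp2, which makes its UDP-glucose substrate (0.62 ± 0.11, adjusted p = 0.00123). In lane L4 only these stood at 0.52 (adjusted p = 0.073) and 0.42 ± 0.13 (adjusted p = 0.0761), and 0 of 18 rose. Of 27 genes of glucose uptake, glycolysis and gluconeogenesis 3 rose and 1 fell, with 1 and 1 in lane L4 only. Pklr, pyruvate kinase, stood at 0.27 ± 0.27 (adjusted p = 0.55). Mat1a, which makes S-adenosylmethionine, had 3499 to 4939 CPM at 3.5 g/L and 2200 to 2782 CPM at 2 g/L (0.72 ± 0.11, adjusted p = 0.000253, and 0.71 ± 0.13 in lane L4 only). Tdo2, the first enzyme of tryptophan breakdown, rose by 0.55 ± 0.09 (adjusted p = 0.000714). Fgf21, a fasting hormone, had 0.748 to 1.92 CPM at 3.5 g/L and 0 to 1.56 CPM at 2 g/L (0.98 ± 0.52, adjusted p = 0.233).

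**Figure D3:**
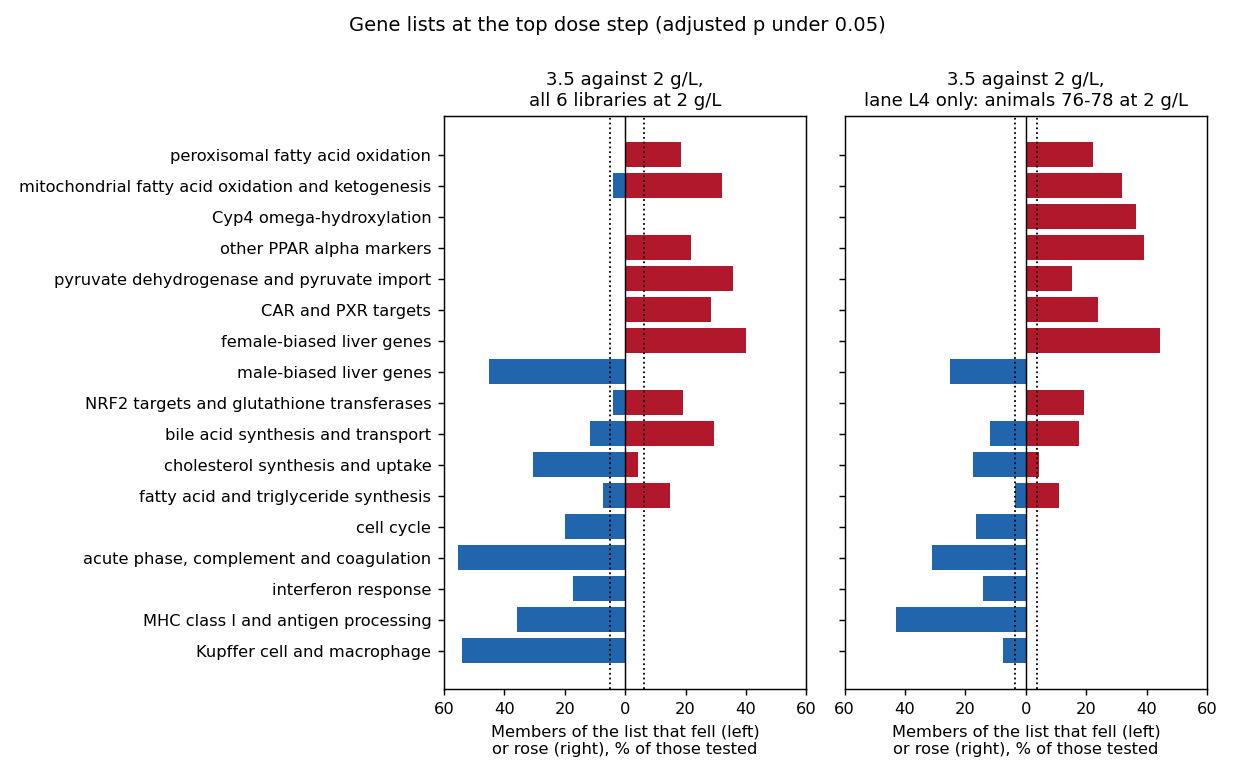
Percent of tested members of 17 gene lists that rose (right) or fell (left) at the top step, against all 6 livers at 2 g/L and in lane L4 only, with dotted lines at the percent over all genes (6.11% higher and 5.13% lower against all 6 livers). Acute phase, male-biased, immune and Kupffer cell lists extend to the left, fat oxidation, PPAR alpha and female-biased lists to the right, and the Cyp4 bar appears in the right panel alone.

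Acute phase genes fell, the hepatocyte secretory response to interleukin 6. Of 29 acute phase, complement and coagulation genes 16 fell and 0 rose, with a median log2 fold change of -0.63, and 9 fell and 0 rose in lane L4 only. Saa1 (chr7:46740497-46742980, minus strand), serum amyloid A, had 7.05, 17.2, 6.04, 22.3, 77.1 and 7.80 CPM in animals 97 to 102 at 3.5 g/L. At 2 g/L it had 86.7, 1123 and 951 CPM in animals 73 to 75 and 82.5, 136 and 207 CPM in animals 76 to 78. Animals 74 and 75 carried the high end, while every liver at 3.5 g/L was below every liver at 2 g/L. The log2 fold change was -4.22 ± 0.95 (adjusted p = 0.006), and -2.63 ± 0.65 (adjusted p = 0.0338) without animals 73 to 75. Lcn2, lipocalin 2, had 0.821 to 5.69 CPM at 3.5 g/L, against 22.8, 134 and 140 CPM in animals 73 to 75 and 6.13, 7.74 and 27.9 CPM in animals 76 to 78 (-4.21 ± 1.10, adjusted p = 0.0157, and -2.33 ± 0.57 in lane L4 only). The calls on Saa1 and Lcn2 were lost with lane as a term in the fit. Lrg1, a leucine-rich glycoprotein, had 21.9 to 50.3 CPM at 3.5 g/L and 69.5 to 242 CPM at 2 g/L and barely moved with the choice (-2.18 ± 0.31, adjusted p = 0.000106, and -2.10 ± 0.31). Orm1, orosomucoid, had 133 to 267 CPM at 3.5 g/L and 340 to 1193 CPM at 2 g/L (-1.75 ± 0.28, adjusted p = 0.000458, and -1.08 ± 0.19 in lane L4 only). Apcs, serum amyloid P, had 71.0 to 112 CPM at 3.5 g/L and 149 to 360 CPM at 2 g/L (-1.42 ± 0.22, adjusted p = 0.000369, and -1.24 ± 0.18 in lane L4 only). Complement C4b and C9, the fibrinogen chains Fga, Fgb and Fgg, hemopexin Hpx and the inhibitors Itih3 and Itih4 were the milder fallers, at -0.57 to -1.12. The Saa and Orm genes have close copies, so their division is uncertain. Among untreated mice, animal 8 had 1101 CPM of Saa1 and 213 CPM of Lcn2. The other untreated livers had 36.15 to 108 CPM of Saa1 and 3.09 to 6.74 CPM of Lcn2. For Saa1, only animal 101 at 3.5 g/L lay within that range. The Lcn2 values at 3.5 g/L overlapped it in part, so a fall of Lcn2 continuing from the untreated level was not shown.

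**Figure D4:**
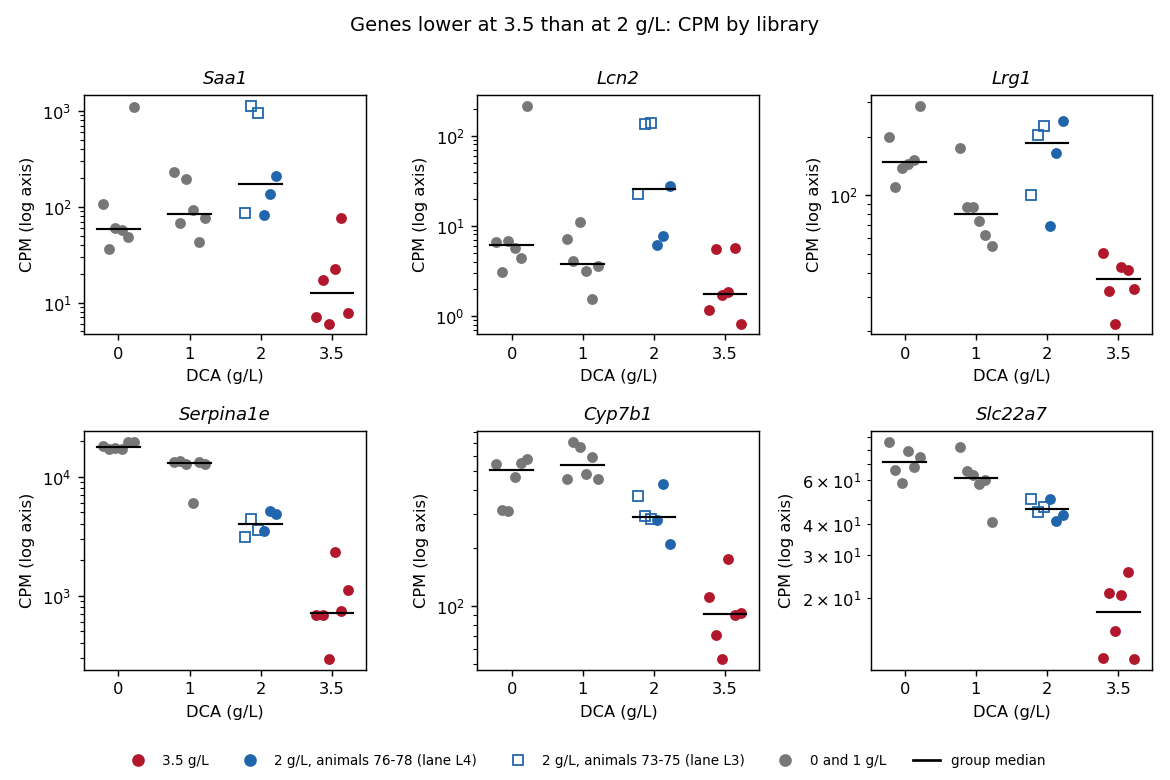
CPM (log axis) of 6 falling genes in each frozen DCA liver by dose, with group medians as lines and open squares for animals 73 to 75. All 6 livers at 3.5 g/L lie below all 6 at 2 g/L for each gene, and Saa1 and Lcn2 show the widest spread at 2 g/L.

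Some markers of immune cells and of antigen presentation fell as well. Of 13 Kupffer cell and macrophage markers tested, 7 fell and 0 rose, but in lane L4 only 1 fell, C1qa. C1qa had 10.1 to 17.3 CPM at 3.5 g/L and 19.9 to 33.5 CPM at 2 g/L (-0.79 ± 0.13, adjusted p = 0.000434, and -0.69 ± 0.15 in lane L4 only). Clec4f, the marker most particular to Kupffer cells, had 43.6 to 69.7 CPM at 3.5 g/L, against 75.9 to 87.9 CPM in animals 73 to 75 and 52.2 to 67.8 CPM in animals 76 to 78 (-0.35 ± 0.11, adjusted p = 0.0499, and -0.15 ± 0.14, adjusted p = 0.538). The summed markers came to 182 to 275 CPM at 3.5 g/L, 359 to 412 CPM in animals 73 to 75 and 228 to 329 CPM in animals 76 to 78. In bulk liver, fewer cells of a type and less RNA per cell cannot be told apart. Neutrophil markers summed to only 1.36 to 2.21 CPM at 3.5 g/L, 6.23 to 10.8 CPM in animals 73 to 75 and 1.92 to 4.88 CPM in animals 76 to 78. Of 3 tested 2 fell, and the 1 tested in lane L4 only was not called. Animal 73 lay above animals 76 to 78 in this sum, though its 86.7 CPM of Saa1 was within their 82.5 to 207 CPM. The part of neutrophils in the acute phase falls was not tested. Of 29 interferon response genes 5 fell and 0 rose (4 and 0 in lane L4 only), with Stat2, a subunit of the interferon-activated factor, at 46.9 to 55.1 CPM at 3.5 g/L and 61.7 to 68.2 CPM at 2 g/L (-0.33 ± 0.08, adjusted p = 0.00954). Of 14 MHC class I genes 5 fell and 0 rose (6 and 0 in lane L4 only), led by Tap2, the peptide transporter (-0.61 ± 0.11, adjusted p = 0.00123). Endothelial, stellate, bile duct, lymphocyte, red blood cell, adipocyte, pancreas and MHC class II lists had 0 calls either way, though some had few members tested, and the stellate marker Hgf was called in lane L4 only. Scara5, a ferritin receptor, fell to 2.10 to 8.09 CPM at 3.5 g/L, against 14.1 to 47.5 CPM at 2 g/L (-2.30 ± 0.31, adjusted p = 6.08e-05, and -2.01 ± 0.30 in lane L4 only).

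DNA replication genes also fell. Of 30 cell cycle genes 6 fell and 0 rose, namely Mcm2 to Mcm6, the replicative helicase subunits, and Ccne1, cyclin E1. The 5 Mcm genes also fell in lane L4 only. Mcm5 had 1.88 to 4.01 CPM (median 2.41) at 3.5 g/L and 5.01 to 8.79 CPM (median 6.40) at 2 g/L, with medians of 3.06 CPM in untreated mice and 4.45 CPM at 1 g/L (-1.32 ± 0.24, adjusted p = 0.00105, and -1.32 ± 0.23 in lane L4 only). Its slope over the top step differed from that below by -1.37 log2 units per g/L (adjusted p = 0.001). Markers of mitosis did not pass: Mki67 had 12.04 to 59.1 CPM at 3.5 g/L and 20.3 to 56.3 CPM at 2 g/L (-0.32 ± 0.35, adjusted p = 0.603), and Ccnb1 stood at -0.42 ± 0.43 (adjusted p = 0.571).

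Histone genes and short RNAs were low at 3.5 g/L, but they did not follow the dose. Hist2h2aa2 had 1.37 to 9.54 CPM at 3.5 g/L and 9.67 to 29.1 CPM at 2 g/L (-1.86 ± 0.44, adjusted p = 0.00771, and -2.11 ± 0.43 in lane L4 only), with medians of 17.0 CPM in untreated mice and 5.53 CPM at 1 g/L. Of 41 replication histone genes tested, a set grouped after the values were seen, 22 fell and 0 rose at the top step, 23 rose and 0 fell from 1 to 2 g/L, and 17 fell and 0 rose from 0 to 1 g/L. Over all genes tested, 5.13% fell at the top step, 9.9% rose from 1 to 2 g/L and 7.01% fell from 0 to 1 g/L. Adjoining steps share the livers of a dose. Rpph1, the RNA of ribonuclease P, had 600 to 2245 CPM (median 945) at 3.5 g/L and 1716 to 3496 CPM (median 2026) at 2 g/L, with medians of 2151 CPM in untreated mice and 845 CPM at 1 g/L. The log2 fold change at the top step was -1.07 ± 0.30 (adjusted p = 0.0239), a call lost without animal 78, 99, 101 or 102. Genes with a longest transcript of 500 to 999 bases had a median log2 fold change of -0.11, and those of 8000 bases or more had 0.053. Among the short ones 55 of 419 fell and 11 rose, against 28 of 700 and 68 among the long ones. Of all 11961 genes with a length, 650 fell and 721 rose. The part of transcript length or poly(A) status in these falls was not tested.

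The remaining lists had few calls, and several of their shares lie near the 6.11% higher and 5.13% lower over all genes tested. In the unfolded protein response list 2 of 16 fell, and Sdf2l1 was one of them (-1.19 ± 0.33, adjusted p = 0.023). In the amino acid response list 2 of 16 rose, Vldlr and the stress factor Atf3, and 2 fell, Chac1 and Aldh18a1. Among immediate early genes 1 of 12 rose (Atf3) and 1 fell (Junb, -1.22 ± 0.32, adjusted p = 0.0162). Among p53 targets 1 of 18 fell, Eda2r (-1.17 ± 0.31, adjusted p = 0.0181), and Cdkn1a stood at -0.15 ± 0.30 (adjusted p = 0.807). Among glucocorticoid-induced genes 2 of 14 fell, Lcn2 and the metallothionein Mt2, whose high value of 58.9 CPM at 2 g/L was in animal 78. Of 18 clock genes 2 rose, Hlf (0.79 ± 0.15, adjusted p = 0.00186) and Clock. The urea cycle list had 2 of 17 rising, tyrosine breakdown 2 of 6, methionine and one-carbon metabolism 2 of 21 with 1 falling, the citric acid cycle 1 of 20, branched-chain amino acid breakdown 1 of 18, and tryptophan to NAD 1 of 13 with 2 falling. Heat shock and AhR targets had 0 calls. Against animals 76 to 78 alone, the calls on Eda2r, Junb, Aldh18a1, Clock and Apoa1 were lost, while those on Hlf, Sdf2l1, Atf3 and Chac1 were kept. Pericentral hepatocyte markers had 2 of 12 rising, periportal markers 2 of 12 with 1 falling, and secreted proteins 3 of 12 with 1, Apoa1, falling.

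The slope per g/L over the top step was tested against the slope from 0 to 2 g/L. It differed in 1024 of 13089 genes (7.82%), being more positive in 499 (3.81%) and more negative in 525 (4.01%). Of the genes called at the top step, 222 risers had a slope more positive than below 2 g/L and 230 fallers one more negative. Some of these had moved the other way below 2 g/L. The log2 fold change of Csad was -1.08 for 2 against 0 g/L and 1.23 at the top step, and that of Mcm2 0.69 and -0.91. In contrast, 2 risers and 1 faller had slopes that differed the other way. The contrast contains the top-step change itself, so this split follows in part from picking genes called there. For 569 genes the slope differed with no call at the top step, and PPAR alpha targets were among them. The slope of Cyp4a14 was 4.14 log2 units per g/L lower than below 2 g/L (-4.14, adjusted p = 2e-05), and that of Ehhadh 2.19 lower (-2.19, adjusted p = 9.4e-05). With animals 76 to 78 alone at 2 g/L the counts of more positive and more negative slopes dropped to 75 and 58.

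The step from 0 to 1 g/L shares no library with the top step, though lanes differ in part between its doses, as given above. It had 538 genes higher (4.11%) and 917 lower (7.01%). Of the genes called at either step, 251 were called at both, which is 17.1% of the top-step calls and 17.3% of the first-step calls. Of these, 57 rose at both, 135 fell at both, 48 fell at the first step and rose at the top, and 11 rose at the first and fell at the top. The genes that fell at both made up 20.1% of the top-step falls and 14.7% of the first-step falls, and those that rose at both 7.12% and 10.6% of the rises. Complement C4b fell at both, with medians of 1349 CPM in untreated mice, 603 CPM at 1 g/L, 509 CPM at 2 g/L and 264 CPM at 3.5 g/L. A fall at both steps need not be a continuing fall. The histone gene Hist1h4h had log2 fold changes of -1.52 from 0 to 1 g/L, 1.72 from 1 to 2 g/L and -1.71 at the top step. Those of the ribosomal protein gene Rplp1 were -0.60, 0.57 and -0.74. Lpin2, Angptl4, Mfsd2a and Csad, which makes hypotaurine, fell first and rose at the top, with Csad at 22.7 to 48.9 CPM at 3.5 g/L, 11.6 to 18.2 CPM at 2 g/L and a median of 26.7 CPM in untreated mice. Csad, C4b, Hist1h4h and Rplp1 were picked as examples after the values were seen.

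**Figure D5:**
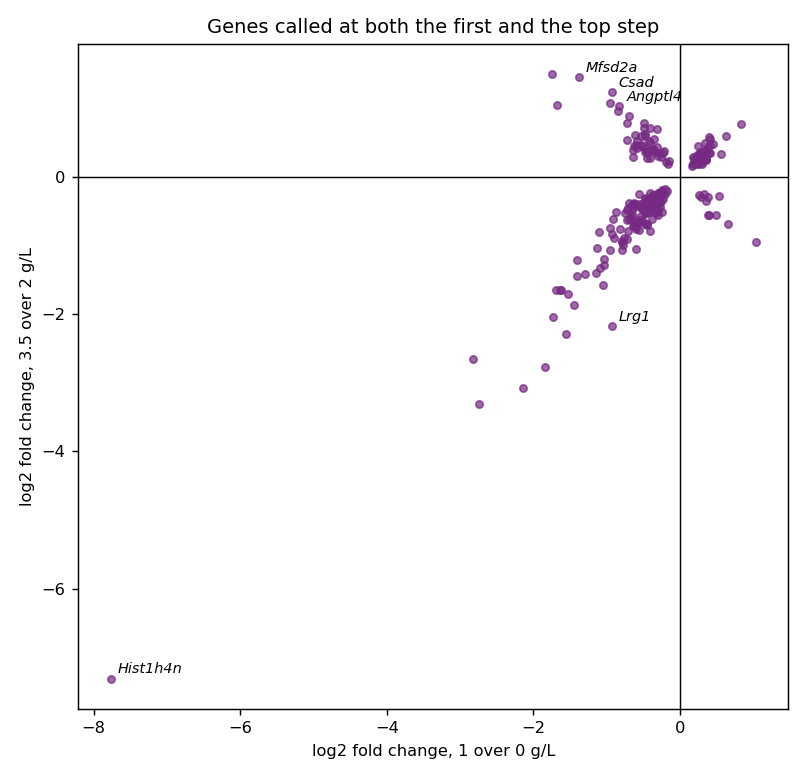
Log2 fold changes of 3.5 over 2 g/L (vertical) against 1 over 0 g/L (horizontal) for the 251 genes called at both steps, each point a gene. The lower left corner holds 135 genes, the upper left 48, the upper right 57 and the lower right 11, and Hist1h4n is the far point at the lower left.

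Formalin-fixed, paraffin-embedded pieces of the same 12 livers were shallow, with 109292 to 653006 counts per library, of which 25.2% to 84.2% fell on the ribosomal precursor Rn45s. Here the lanes followed the dose (L3 at 3.5 g/L, L2 at 2 g/L), and the pair cannot be told apart. Of 665 genes tested, 0 (0%) were called by edgeR and 9 (1.35%) had an unadjusted p under 0.05. The FFPE fit tested 171 of the frozen calls, and 113 (66.1%) had the same sign, against 52.8% of 492 genes not called in frozen liver. Lpin2 stood at 1.08 ± 0.78 (SE) in FFPE, against 1.08 in frozen liver, and Serpina1e at -0.59 ± 0.45, against -2.07. Selenbp2 and C4b had the other sign in FFPE, at 0.45 ± 0.96 and 0.19 ± 0.74, against -1.28 and -0.80 in frozen liver. None of these genes passed the test in FFPE.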

How the data were processed

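RNA-seq of frozen and FFPE mouse liver was used. The authors deposited RSEM expected counts per gene. CASAVA, STAR 2.4, RSEM and mm10 are named in the submitters' processing notes, with no role given there. Expected counts were rounded, and 0 columns lacked a sample. edgeR 4.0.16 (R 4.3.3) with TMM scaling and filterByExpr (minimum count 10) was fitted to the 24 frozen DCA libraries, and 3.5 against 2 g/L was tested by quasi-likelihood with Benjamini-Hochberg adjustment at 0.05. Of 17672 genes, 13089 were tested. Levels are CPM and standard errors come from the same fit. FFPE counts and the lane L4 only comparison were fitted apart. The slope contrast set the change over the top 1.5 g/L against that over the lower 2 g/L, each per g/L.

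Genes named are the 12 largest non-overlapping rises and falls with mean log2 CPM of at least 2, the 2 called members of smallest adjusted p in each of 48 lists, and a fixed set. Others were chosen after their values were seen. The comparison and lists were chosen with earlier results of these data known. Gene coordinates are GENCODE M21 (mm10), and promoters are RefSeq GRCm38.p6, matched by symbol. Alternatives covered scaling (with DESeq2 1.42.0 as another tool), filters, lane, depth, thresholds, the other deposited count table and left-out libraries. The fit was tested on simulated data. The skeletal muscle list had 0 members tested, and the mitochondrial genome list was not analysed here. Some genes of the fixed set are not reported here.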

Additional observations from a re-analysis of the deposited data

Results flagged for a closer look

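In 14 of 192 groups tested (7.29%), a single liver stood far from the other 5 of its dose by Dixon's test, which chance does in about 1 of 20 groups. Animal 99 at 3.5 g/L was high for 3 of the named rises: Cyp2a4 was 259 CPM, against 66.7 to 124 CPM in the others, Cyp2b9 was 421 CPM, against 47.7 to 149 CPM, and Vldlr was 30.3 CPM, against 9.41 to 17.2 CPM. Saa1 was 77.1 CPM in animal 101 at 3.5 g/L, against 6.04 to 22.3 CPM. Animal 98 at 3.5 g/L had 4947 CPM of Apoa2, against 3840 to 4211 CPM, and 97.1 CPM of Acot1, against 188 to 235 CPM. C1qa was 10.1 CPM in animal 102, against 14.6 to 17.3 CPM, and Cyp2b10 was 3.2 CPM in animal 97, against 0.274 to 1.11 CPM.

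At 2 g/L, animal 78 stood apart for 5 genes. It had 49.5 CPM of Sdf2l1, against 9.63 to 16.9 CPM in the others, 58.9 CPM of Mt2, against 0.438 to 11.3 CPM, and 29.1 CPM of Hist2h2aa2, against 9.67 to 16.01 CPM. It was low for Tdo2, at 690 CPM, against 907 to 1034 CPM, and for Aadat, at 58.4 CPM, against 85.1 to 97.6 CPM. Elovl6 was 219 CPM in animal 76, against 128 to 154 CPM.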

How the results depend on the processing

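No paired analysis was possible because animal numbers differ between dose groups. The 800 higher and 672 lower genes became 470 higher in lane L4 only (463 lower), 315 and 276 with animals 73 to 75 alone at 2 g/L (an alternative chosen after seeing the data), and 86 and 95 when all libraries were thinned to the smallest total. An adjusted p under 0.01 left 303 and 192, and a fold of at least 2 left 66 and 120. Leaving out 1 library gave 500 to 800 higher and 416 to 845 lower, with the lowest of both without animal 102 and 440 lower without animal 78. Both counts stayed within 1.5 times with lane as a term (700 and 755), DESeq2 size factors (786 and 677), upper-quartile factors (602 and 815), no filter (802 and 485), a stricter filter (796 and 692), only the 12 libraries (554 and 539), DESeq2 (875 and 738) and the other count table (832 and 694). The cause of these shifts was not tested, apart from the fewer counts or samples that thinning and leaving out bring.

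In lane L4 only, leaving out 1 library gave 168 to 548 higher and 128 to 688 lower, with both minima without animal 78. Without animal 76 or 102 the higher genes were 240 and 294, and without animal 77, 99 or 102 the lower genes were 296, 265 and 250. Between animals 76 to 78 and 73 to 75 the ranges were 19 to 63 and 15 to 68, both lowest without animal 75, and without animals 73, 74 or 78 they were 53, 20 and 29 higher and 41, 25 and 17 lower, with 57 higher without animal 76. The slope counts became 75 and 58 with animals 76 to 78 alone at 2 g/L, and 305 to 576 and 307 to 692 on leaving out 1 library, lowest without animal 75. FFPE gave 0 to 0 calls. No named gene changed sign. Of the named genes, 26 lost their call in lane L4 only, 17 with lane as a term (Saa1 and Lcn2 among them) and 33 after thinning. Leaving out 1 library ended the call on Foxq1 or Cyp3a11 for 8 libraries each, Acot1 or Egfr for 9, Clec4f for 10, Clock for 11, Atf3 for 8, Mt2 for animals 78, 100, 101 and 102, Sdf2l1 for 78 and 102, Aldh18a1 for 78, and Mcm2 and Mcm6 for 76. Counts of 3067666 to 3854949 in animals 73 to 75 limit what can be seen of low genes at 2 g/L.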
